A study of Mus musculus with 16 samples.

Results

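Nod1, Nod2 and the proteins that feed or carry their signal were followed here across mouse follicular B cells, the mature B cells that recirculate through the follicles of spleen and lymph nodes. The set holds 6 genes, taken by name from the gene column of the scanner files with older names accepted: Nod1 (named Card4 there), Nod2 (Card15), Ripk2, Xiap (Birc4), Slc15a3 and Slc15a4. They were measured by 8 probes of the 41174 on the array, and all 6 were among the 20461 genes tested.

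RNA from 8 samples was hybridised to 16 dual-colour Agilent arrays, each sample once in either dye orientation, against a reference pooled from 6 cell lines. All mice were of the C.B17 strain, and the groups differed in the B cell receptor that their B cells carry and in a Thy-1 knockout. In Auto.Neg (2 samples) the transgenic heavy chain VH3609μ and light chain Vk21-5κ make an antibody against Thy-1, on a Thy-1 knockout background, so the antigen is lacking. In Auto.Pos (2 samples) the heavy chain VH3609μ is joined by a Vk19-17κ light chain, and the receptor binds goblet cells of the intestine; a second label field of these samples writes the light chain differently. WT (2 samples) is the wild type. Non-edited and Edited (1 sample each) both come from mice with 1 copy of VH3609t and 1 of the Vk21-5 transgene on the Thy-1 knockout, and differ in whether the B cells are labelled as having edited their receptor. The knockout is given for Auto.Neg, Non-edited and Edited, and not for Auto.Pos or WT. Receptor and knockout therefore cannot be told apart where Auto.Neg is compared with Auto.Pos or with WT. Whether the samples of one group are separate mice is not in the labels, so a p-value measures the spread between these samples only.

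NOD1 and NOD2 are receptors of the cytosol that bind fragments of bacterial cell wall peptidoglycan. NOD1 binds pieces that contain diaminopimelic acid and NOD2 binds muramyl dipeptide. Once bound, either receptor recruits the kinase RIPK2 through paired CARD domains, ubiquitin ligases such as XIAP modify RIPK2, and the signal passes to NF-kB and to MAP kinases. SLC15A3 and SLC15A4 are transporters of endosomes and lysosomes that move such fragments into the cytosol.

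Each probe is a single strand of 60 bases, so whether the Nod1 and Nod2 probes could read each other's transcript bears on the different patterns of these receptors. Shown are the first 30 bases of each. Capitals mark the longest run that these 30 bases share with the other probe of the pair. Both Xiap probes that were measured are shown because they gave different readings.
Nod1: cTCAAAgcaaagcatggcacatacccacca
Nod2: agcctttctttctgAGCAAggtctttctgt
Xiap, main probe: agtatggttgtgTAAAAAatggtcactcgg
Xiap, other probe: atatttcaagcattctgccagGAATAgttt
Over their whole length the Nod1 and Nod2 probes share no run longer than 5 bases and the Xiap probes none longer than 6. Probes were compared with each other only, and not with transcripts. These runs do not tell whether a probe reads the other receptor's transcript, which was not tested. The Nod1 probe lies on the minus strand at chr6:54887383-54887442 and the Nod2 probe on the plus strand at chr8:87280632-87280686, both in build mm7 as the files give it. The span given for the Nod2 probe is 55 bases, which is shorter than the probe. The main Xiap probe lies at chrX:37199585-37199644 and the other at chrX:37199182-37199242. The files do not say which exon, or which part of the transcript, a probe lies in.

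The samples were first checked against their labels. By the mark that the scanner software sets, 61.9% to 81.9% of probes were well above background in the sample channel, and the 2 arrays of a sample correlated at 0.906 to 0.970. All 10 B cell markers were measured, with summed signals of 980504 to 1158694 over the 8 samples. Auto.Neg 2 and Auto.Pos 1 stand apart from their own groups. They were hybridised on one slide and correlated at 0.978 with each other, against 0.903 between the Auto.Neg samples and 0.904 between the Auto.Pos samples. Auto.Pos 2 and WT 2 share a scan day and correlated at 0.924, close to the 0.923 between the WT samples. Values within these pairs are therefore given beside the group differences. Thy1, the deleted gene, does not show the deletion itself here, since the deleted part is not given. One Thy1 probe was low in all 8 samples. The other probe read -1.43 to 0.46 in the 4 knockout samples and -3.77 to -2.93 in the other 4. Its values thus separated the samples as labelled, and why they were higher in the knockout was not tested.

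Nod1 was the member that varied most. Its log2 ratio of sample over reference was 2.89 and 3.23 in Auto.Neg, 4.04 and 3.66 in WT, and 5.45 and 5.08 in Auto.Pos. It was 1.60 in Non-edited and 4.07 in Edited. The groups were ordered Auto.Pos, Edited, WT, Auto.Neg and Non-edited from high to low, and no neighbours in that order overlapped, although the step from Edited to the higher WT sample was smaller than the SD within any replicated group (0.24 to 0.267). The SD over the 8 samples was 1.22, at the 99.2 percentile of all genes tested. The Nod1 probe was well above background in both channels on all 16 arrays, with background-subtracted sample signals from 651 to 13513, and the arrays of a dye pair differed by a median of 0.10 and by 0.67 at most, in WT 2. In bulk RNA, fewer cells that express a gene and less RNA per cell cannot be told apart.

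**Figure D1:**
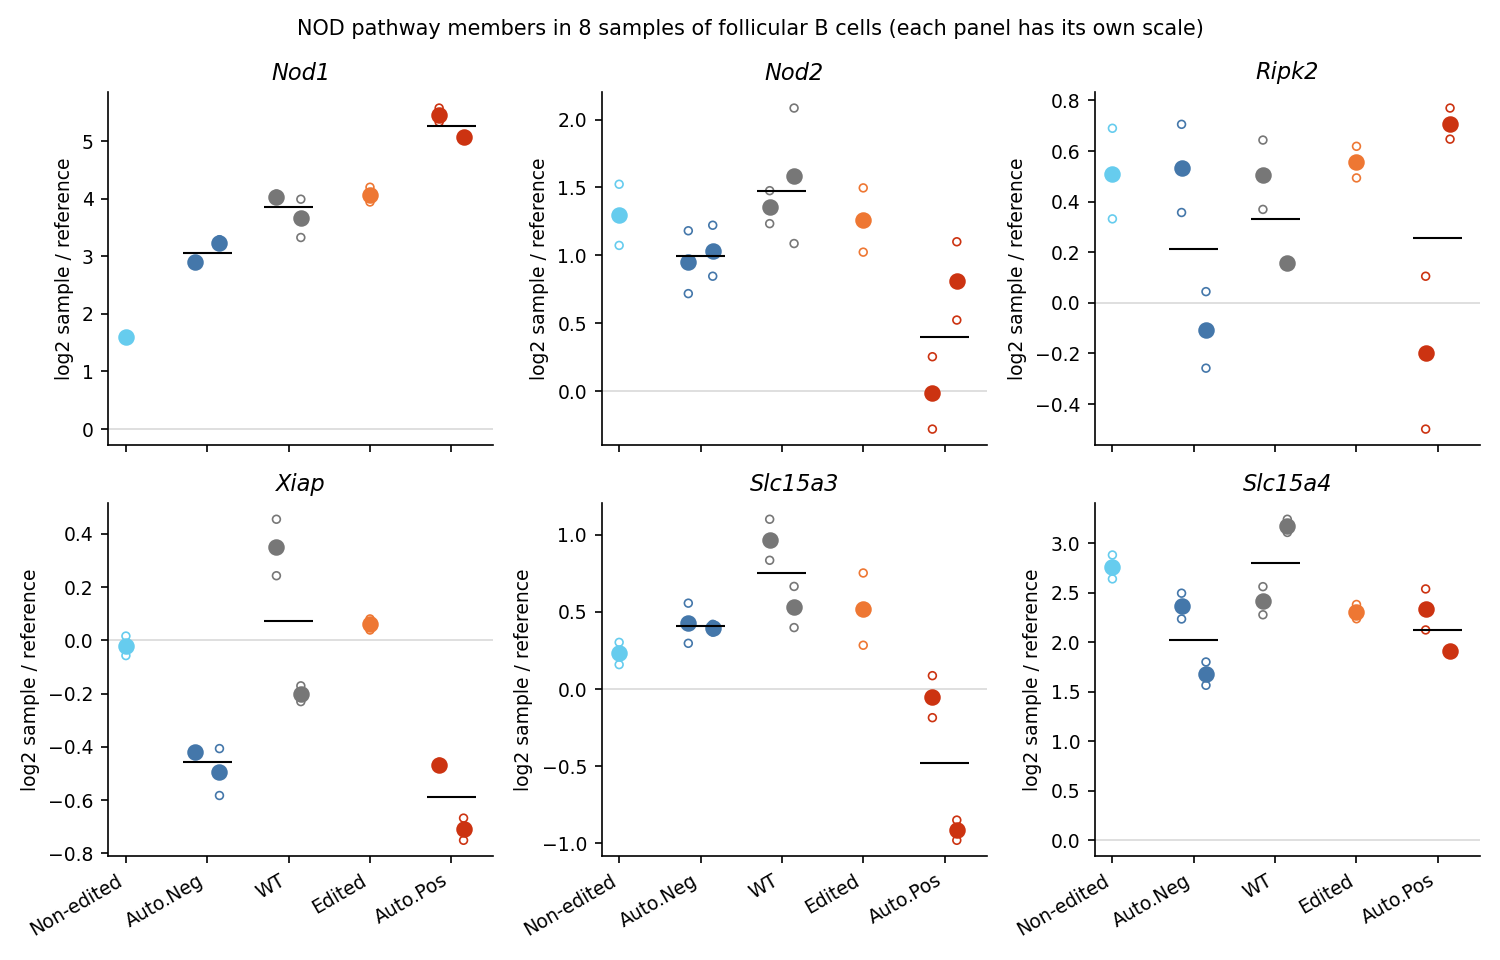
Log2 ratio of sample over reference for the 6 genes in each of the 8 samples, with a point for each sample and a panel for each gene. Nod1 spans 1.60 to 5.45, and its Auto.Pos samples lie above every other sample.

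Between Auto.Pos and Auto.Neg, the comparison of goblet cell binding with anti-Thy-1 B cells that lack their antigen, Nod1 averaged 5.26 ± 0.264 (SD, n = 2) against 3.06 ± 0.24 (SD, n = 2). The difference was 2.20 (SE 0.263, 95% interval 1.53 to 2.87), or 4.60-fold, the 13th highest of the 20461 genes. limma gave an unadjusted p of 3.58e-04 and a Benjamini-Hochberg adjusted p of 0.484 over all genes, so Nod1 did not pass the threshold of 0.05. The threshold was passed by 0.0147% of all genes, and by 0 of the 6 members. The pair on one slide differed by 2.22 and the other pair by 2.18, so the difference was as large within the slide as outside it. Groups of 2 do not overlap, with a mean at least 2-fold higher in Auto.Pos, in 0.391% of all genes. An exact permutation test of 2 against 2 samples cannot go below a two-sided p of 0.333 and was not used.

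Against WT, Auto.Pos and Auto.Neg differed in opposite directions. Both comparisons use the same WT samples, and so are not independent of each other or of the one above. Auto.Pos lay 1.42 above the WT mean of 3.85 ± 0.267 (SD, n = 2), a 2.67-fold difference with an interval of 0.75 to 2.09 and a limma adjusted p of 0.400. Groups were apart, with a mean at least 2-fold higher in Auto.Pos, in 2.6% of all genes. The pair of scan day 3 gave 1.42 and the other pair 1.42. Auto.Neg lay 0.78 below WT, a 1.72-fold difference with an interval of -1.46 to -0.11 and a limma adjusted p of 1.00. Scaling all arrays to an equal spread lowered the first of these differences to 0.45 and enlarged the second to -1.31.

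The adjusted p of Nod1 depended on how scan day was treated. With scan day as a random block, whose correlation limma estimated at 0.917 across genes from days that hold few samples, Nod1 had a difference of 2.23 between Auto.Pos and Auto.Neg with an adjusted p of 0.00243, in a fit that called 0.191% of all genes. The same fit gave 1.41 for Auto.Pos against WT with an adjusted p of 0.00410, and called 20.4% of all genes. Passing was not particular to Nod1 there: limma adjusted p was 0.0065 for Slc15a3, 0.019 for Nod2, 0.024 for Xiap and 0.027 for Slc15a4. Ripk2, at 0.108, did not pass. For Auto.Neg against WT the fit gave -0.82 for Nod1 with an adjusted p of 0.0496, and called 2.24% of all genes. The direction of Nod1 was the same with and without the block in all 3 comparisons.

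Edited cells had more Nod1 than Non-edited cells, in 1 sample each and so without a replicate check. The difference was 2.47, or 5.53-fold, with 2.36 on the arrays that carried the sample in Cy5 and 2.58 on those that carried it in Cy3. Of 20348 genes with values in both orientations, 1.22% were at least 2-fold higher in Edited in each orientation and 0.172% at least 2-fold lower, and Nod1 ranked 35 from the top. The other 5 members differed by -0.45 to 0.29 and so lay within a 2-fold difference. Non-edited held the lowest Nod1 value of the 8 samples, and Edited lay between WT and Auto.Pos.

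**Figure D2:**
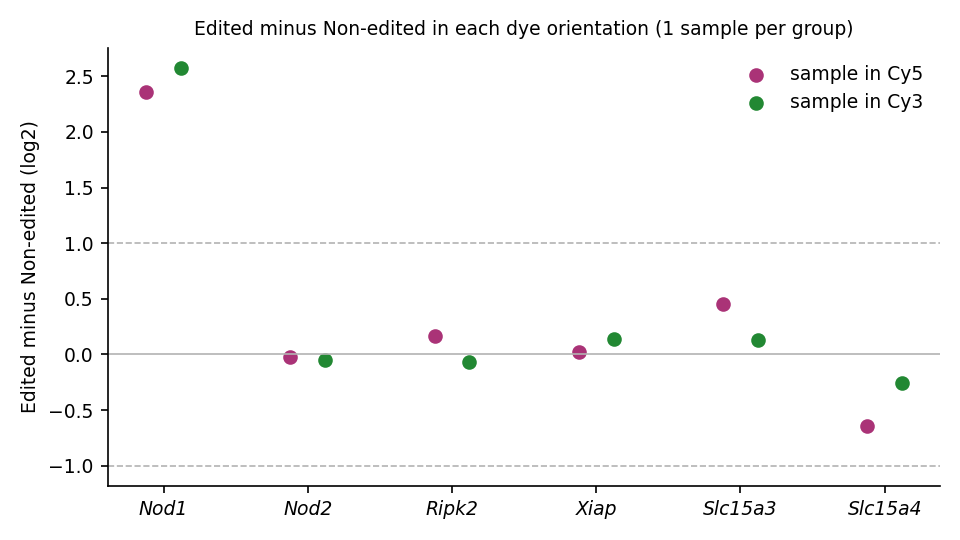
Difference between Edited and Non-edited in log2 for the 6 genes, with a point for each dye orientation. Nod1 lies at 2.36 and 2.58, and the other genes lie between -0.64 and 0.45.

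Marker lists of other cell types were summed beside these values, as normalized sample signal. The 8 megakaryocyte and platelet markers summed to 4753 to 23324 in Auto.Pos, 2771 to 3614 in Auto.Neg and 1708 to 11807 in WT, and to 1615 in Non-edited and 1937 in Edited. All 8 of them read higher in Auto.Pos than in Auto.Neg or in WT and lower in Auto.Neg than in WT, as Nod1 did, and 0 passed the test. Of 14 macrophage and monocyte markers 13 were measured, Itgam being dim. They summed to 27405 to 71136 in Auto.Pos, 21229 to 42153 in Auto.Neg and 49870 to 81662 in WT, and to 13489 in Non-edited and 15652 in Edited. Between Edited and Non-edited, 3 of the 8 platelet markers read higher (median difference -0.05). Of the 13 macrophage markers 9 read higher (median 0.10), up to 1.49 for Adgre1, a macrophage surface receptor. T cell markers (9 of 10 measured) summed to 9638 in Non-edited and 14177 in Edited, and neutrophil markers (7 of 9 measured) to 12319 and 7849. By gene, 7 of the 9 T cell markers read lower in Edited (median difference -0.34) and 2 higher, up to 1.86 for Lck. Of the 7 neutrophil markers 5 read lower (median -0.43) and 2 higher, up to 1.62 for Mpo.

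Among B cell subsets, the 10 marginal zone B cell markers summed to 166382 to 184955 in Auto.Pos, 132950 to 152414 in Auto.Neg and 167738 to 201198 in WT, and to 227345 in Non-edited and 271419 in Edited. The 7 B-1 cell markers summed to 12156 to 16906 in Auto.Pos, 8796 to 12192 in Auto.Neg and 10838 to 14931 in WT, and to 7883 in Non-edited and 17044 in Edited. The B-1 sums had the same lowest sample as Nod1, Non-edited, but so had the macrophage, platelet and T cell sums. The highest B-1 sum was in Edited, where that of Nod1 was in Auto.Pos. Between Edited and Non-edited, 4 of the 7 B-1 markers read higher and 3 lower (median difference 0.003). The marginal zone sums were highest in the Edited and Non-edited samples, and 7 of those 10 markers read higher in Edited and 3 lower (median 0.47). A single marker of either list is among the genes most like Nod1 over the 8 samples: Cd9 of the marginal zone list read 2.64 higher in Auto.Pos than in Auto.Neg and 2.51 higher in Edited than in Non-edited, and Ptpn22 of the B-1 list 1.07 and 1.99 higher. Dendritic cell sums lay between 5568 and 15252 and plasma cell sums between 42793 and 57784 over the 8 samples. The part of any of these cell types in the Nod1 differences was not tested.

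Nod2 did not share the pattern of Nod1. It read 1.35 and 1.59 in the WT samples, 0.95 and 1.03 in those of Auto.Neg, and -0.01 and 0.81 in those of Auto.Pos. It was 1.30 in Non-edited and 1.26 in Edited. Auto.Pos held the 2 lowest samples and WT the 2 highest, and no neighbouring groups overlapped. Non-edited and Edited hold 1 sample each and so cannot overlap one another. Between the nearest samples of neighbouring groups, every step was smaller than the gap between the arrays of any dye pair. The Auto.Pos samples themselves were 0.82 apart, and in all 8 samples the array with the sample in Cy5 read above the one with it in Cy3, by 0.24 to 1.00, an offset that averaging over the dye pair reduces.

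Against WT, Nod2 lay 1.07 lower in Auto.Pos (interval -1.89 to -0.25), a 2.10-fold difference with a limma unadjusted p of 0.0199 and an adjusted p of 0.723. The pair of scan day 3 gave -0.77 and the other pair -1.37. Between Auto.Pos and Auto.Neg the difference was -0.59 (SE 0.320), which came from the slide pair at -1.05 more than from the other pair at -0.14. Auto.Neg read 0.48 below WT, with an adjusted p of 1.00 in limma. Nod2 therefore read lower in Auto.Pos than in WT where Nod1 read higher, and in Auto.Neg both read below WT. Between Edited and Non-edited, where Nod1 differed by 2.47, Nod2 differed by -0.04.

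**Figure D3:**
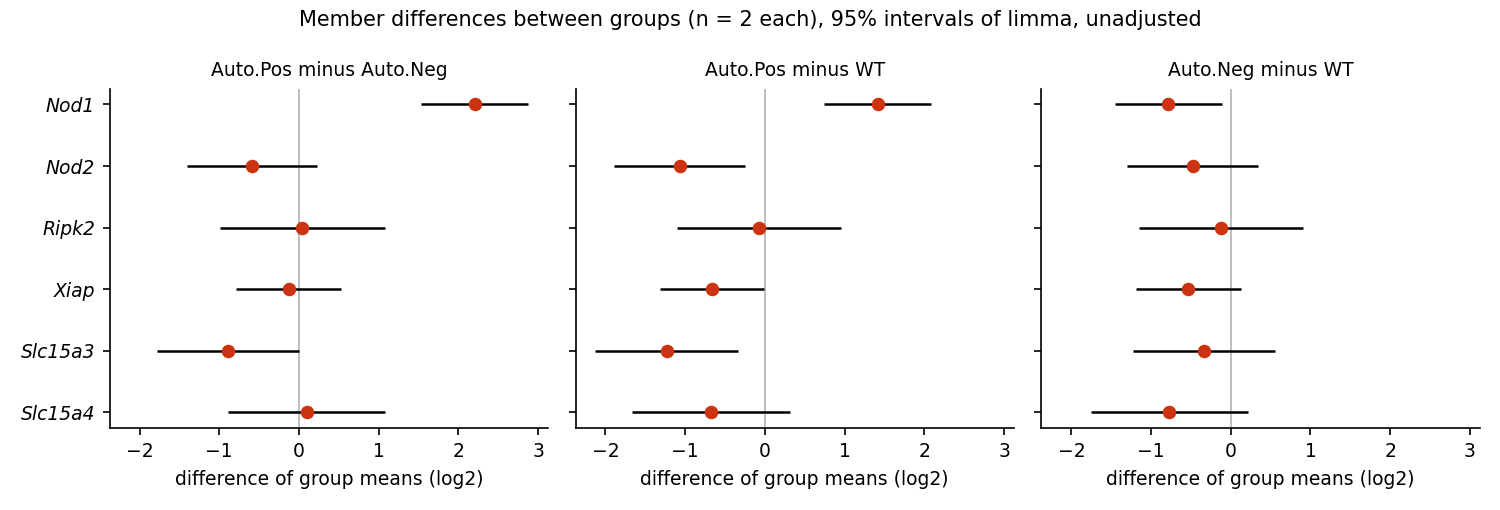
Differences between groups in log2 for the 6 genes in the 3 pairwise comparisons, with 95% intervals from limma. Nod1 lies at 2.20, 1.42 and -0.78, and is the gene with the largest difference in each comparison. In the third, Slc15a4 lies close to it at -0.77.

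The transporters came next in the order of the pathway. Slc15a3 was measured on chromosome 19 between 10537433 and 10537783, a span longer than the probe. Whether the probe crosses an intron was not checked. The WT samples read 0.97 and 0.53, those of Auto.Neg 0.43 and 0.39 and those of Auto.Pos -0.05 and -0.92, with 0.23 in Non-edited and 0.52 in Edited. Both Auto.Pos samples lay below all other samples. The difference from WT was -1.23 (interval -2.13 to -0.34), 2.35-fold lower, with a limma adjusted p of 0.679, and the pair of scan day 3 gave -1.45 and the other pair -1.02. The difference between Auto.Pos and Auto.Neg was -0.89 (SE 0.350, adjusted p of 1.00 in limma), with -0.44 on the shared slide and -1.34 in the other pair. Auto.Neg lay 0.34 below WT, and Edited differed from Non-edited by 0.29.

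Slc15a4, which in mice is needed for the response of endosomal Toll-like receptors as well, had signals from 12276 to 61456. Its log2 ratios were 2.42 and 3.17 for WT, 2.36 and 1.68 for Auto.Neg and 2.33 and 1.91 for Auto.Pos, with 2.76 in Non-edited and 2.31 in Edited. Auto.Pos and Auto.Neg overlapped, and both WT samples lay above them. The differences from WT were -0.68 for Auto.Pos and -0.77 for Auto.Neg (SE 0.386 for both), with limma adjusted p of 1.00. For Auto.Pos the pair of scan day 3 gave -1.26 and the other pair -0.09. Leaving out WT 2, the highest sample, moved these differences to -0.30 and -0.40. The sign between Auto.Pos and Auto.Neg was not settled: the mean difference was 0.10, with 0.65 on the shared slide and -0.45 in the other pair. Edited read 0.45 below Non-edited.

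Ripk2, the kinase that both receptors signal through, was the dimmest member. Its probe spans chr4:16059975-16065245, which again is longer than the probe. The sample channel was well above background on 13 of 16 arrays, on neither array of WT 2 and on 1 of the 2 of Auto.Pos 1, with signals from 27.4 to 180. The reference channel was well above background on 5 of 16 arrays, so most Ripk2 ratios were taken over a reference near background. Ripk2 read 0.51 and 0.16 for WT, 0.53 and -0.11 for Auto.Neg and -0.20 and 0.71 for Auto.Pos, with 0.51 in Non-edited and 0.56 in Edited. All replicated groups overlapped. The difference between Auto.Pos and Auto.Neg was 0.04 with an interval of -0.99 to 1.07, so a difference of 2-fold upward, or of slightly less than that downward, lay within the interval. The shared slide gave -0.09 and the other pair 0.18. The differences from WT were -0.08 for Auto.Pos and -0.12 for Auto.Neg (SE 0.403), and for Auto.Pos the pair of scan day 3 gave 0.55 and the other pair -0.70.

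Xiap, the ligase that puts ubiquitin on RIPK2 and also inhibits caspases, had 3 probes, of which 1 was well above background on 1 array and was not tested. The main probe gave 0.35 and -0.20 for WT, -0.42 and -0.49 for Auto.Neg and -0.47 and -0.71 for Auto.Pos, with -0.02 in Non-edited and 0.06 in Edited. The WT samples lay above all 4 transgenic samples of the replicated groups. Auto.Pos lay 0.66 below WT (interval -1.32 to -0.01) with a limma adjusted p of 0.884, and Auto.Neg 0.53 below. For Auto.Pos the pair of scan day 3 gave -0.51 and the other pair -0.81. Auto.Pos and Auto.Neg overlapped and differed by -0.13, with 0.03 on the shared slide and -0.29 in the other pair. The other probe gave -0.32 and -0.08 for WT, 0.09 and 0.14 for Auto.Neg and 0.35 and -0.18 for Auto.Pos, with 0.65 in Non-edited and 0.63 in Edited. Its differences from WT were 0.28 and 0.31, opposite in sign to those of the main probe, with -0.10 within scan day 3 and 0.67 in the other pair of Auto.Pos and WT, so no direction can be given for Xiap.

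Counted over the 6 members, Nod1 alone was apart and higher in Auto.Pos than in Auto.Neg, and 2, Nod2 and Slc15a3, were apart and lower. Over all genes tested, 11.1% were apart and higher and 8.18% apart and lower. An unadjusted limma p under 0.05 was reached by 1 member between Auto.Pos and Auto.Neg, against 1.04% of all genes. The median of the 6 differences was -0.04, and that of all genes 0.02.

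Against WT, 1 member was apart and higher in Auto.Pos (19.2% of all genes) and 4 were apart and lower (10.4% of all genes), and 4 reached an unadjusted p under 0.05 (5.63% of all genes). In Auto.Neg none was apart and higher (15.4% of all genes) and 5 were apart and lower than WT (9.57% of all genes), and 1, Nod1, reached that p (4.6% of all genes). Apart with a mean at least 2-fold higher than WT were 0 members in Auto.Neg, against 2.17% of all genes. In both comparisons 0 members and 0% of all genes passed the adjusted threshold. The median of the 6 differences was -0.67 for Auto.Pos and -0.50 for Auto.Neg against WT, beside medians over all genes of 0.06 and 0.04. All 6 members read lower in Auto.Neg than in WT and 5 of 6 read lower in Auto.Pos, with Nod1 the exception; both counts rest on the same WT samples and, for Xiap, on the main probe. They include Ripk2, whose sign turned in 7 of 22 alternatives in each of these comparisons, and Nod2, which turned to 0.12 in Auto.Neg against WT with scan day as a random block.

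The rest of the pathway was described through a list of 79 further genes, of which 70 were tested and 0 were called in any comparison. Between Auto.Pos and Auto.Neg 38 read higher and 32 lower, 9 and 10 of them with groups apart (11.1% and 8.18% of all genes), and 0 had an unadjusted p under 0.05 in limma. Their median difference was 0.02, the same as that of all genes, and their range was -0.54 to 0.98, so the Nod1 difference of 2.20 lay outside it. Against WT, 8 of the 70 in Auto.Pos (5.63% of all genes) and 4 in Auto.Neg (4.6% of all genes) had an unadjusted p under 0.05, with medians of -0.01 and 0.03.

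By role, the highest and lowest difference between Auto.Pos and Auto.Neg were as follows. Among genes of ligand uptake and removal these were Lyz1, a lysozyme that digests peptidoglycan, at 0.98, and Slc29a3, a nucleoside transporter of lysosomes, at -0.52. Slc29a3 was also the gene of the list that lay lowest in Auto.Pos against WT, at -1.66 with a limma adjusted p of 0.687. Among the chaperones and partners of the receptors, Erbin, which binds NOD2, lay at 0.67 and Oas2, an enzyme of the interferon response, at -0.54. The ligases ran from 0.36 for Peli3 to -0.41 for Rnf31, the catalytic part of the linear ubiquitin ligase.

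Downstream, the kinases ran from 0.51 for Chuk, an IkB kinase, to -0.37 for Tab1, a partner of the kinase TAK1. Of 8 genes of NF-kB subunits and inhibitors 7 read lower and 1 higher, with a median of -0.25 and a range from -0.46 for the inhibitor Nfkbie to 0.22 for the subunit Rel, and 0 had an unadjusted limma p under 0.05. Of 8 genes that were listed as brakes on the ubiquitin signal 6 read higher and 2 lower, from Tirap at 0.44 to Tnip1 at -0.23. Whether each of these, Tirap included, limits NOD signalling was not tested. Of the secreted products Il1b lay at 0.38 and Tnf at -0.11, and the 5 others that are known as outputs in myeloid cells, Cxcl1, Cxcl2, Il12b, Il23a and Il6, were too dim to be tested. Apart from Nod1, no tested gene of the whole list reached a 2-fold difference between the mean log2 ratios of Auto.Pos and Auto.Neg.

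**Figure D4:**
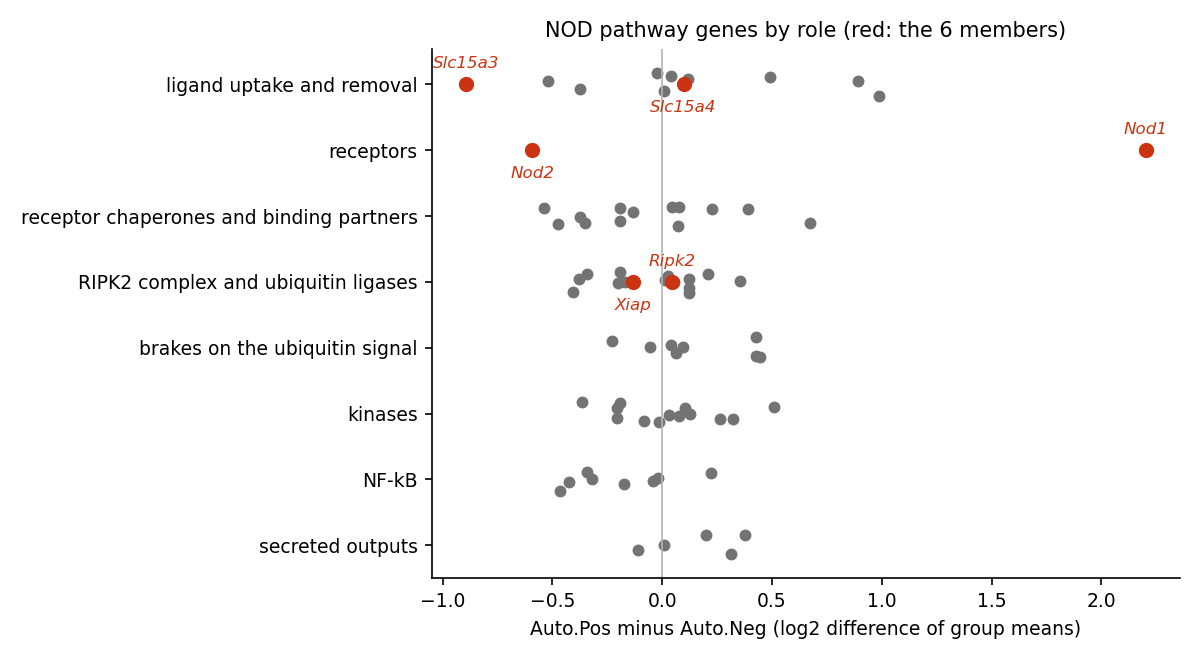
Difference between Auto.Pos and Auto.Neg in log2 for each tested gene of the NOD pathway list, in rows by role. Nod1 lies at 2.20, and the 70 genes that are not members lie between -0.54 and 0.98.

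Between Edited and Non-edited, 33 of the 70 genes read higher and 37 lower, with a median of -0.01 beside -0.03 over all genes. In neither direction did any reach a 2-fold difference in each dye orientation (0 of 70), and the range was -0.87 for Chordc1, a co-chaperone, to 1.11 for Trim27, a ubiquitin ligase that acts on NOD2 in human cells. Nod1, at 2.47, again lay outside the range of the list.

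The other 5 members all correlated negatively with Nod1 over the 8 samples. Pearson's r between Nod1 and each of them ran from -0.586 for Nod2 to -0.204 for Ripk2, and the closest pair among all members was Slc15a3 with Xiap at 0.776. These 8 points share the reference and, in part, slides and scan days, so the values are descriptions. Among 1860 genes whose SD was at least 50% of that of Nod1, those with the highest r were Ehd3 (0.905), a protein of endosome recycling, Cd9 (0.898), a tetraspanin that is in the marginal zone list, Cubn (0.886), an endocytic receptor, Casp4 (0.883), an inflammatory caspase, and Ptpn22 (0.862), a phosphatase of lymphocytes that is in the B-1 list. Each read higher in Auto.Pos than in Auto.Neg and in Edited than in Non-edited. They were picked for likeness to Nod1 over these same samples, so shared directions follow in part from the choice. The Casp4 groups overlapped, with 2.01 in Auto.Pos 2 and 2.10 in Auto.Neg 2. In Auto.Neg against WT, Casp4 (0.10) and Ptpn22 (0.30) read higher, where Nod1, Ehd3, Cd9 and Cubn read lower.

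Cd9 came nearest to Nod1 in size as well. Its values were 3.83 and 4.02 for WT, 3.57 and 2.99 for Auto.Neg and 5.89 and 5.94 for Auto.Pos, with 2.78 in Non-edited and 5.29 in Edited. As with Nod1, the order was Auto.Pos, Edited, WT, Auto.Neg and Non-edited. Its difference between Auto.Pos and Auto.Neg was 2.64 (limma adjusted p of 0.275) and that between Edited and Non-edited 2.51. Casp4 and Ptpn22 had differences of 0.80 and 1.07 between Auto.Pos and Auto.Neg, and of 1.53 and 1.99 between Edited and Non-edited. Ehd3 and Cubn gave 0.98 and 1.46 in the first of these and 1.56 and 1.63 in the second.

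**Figure D5:**
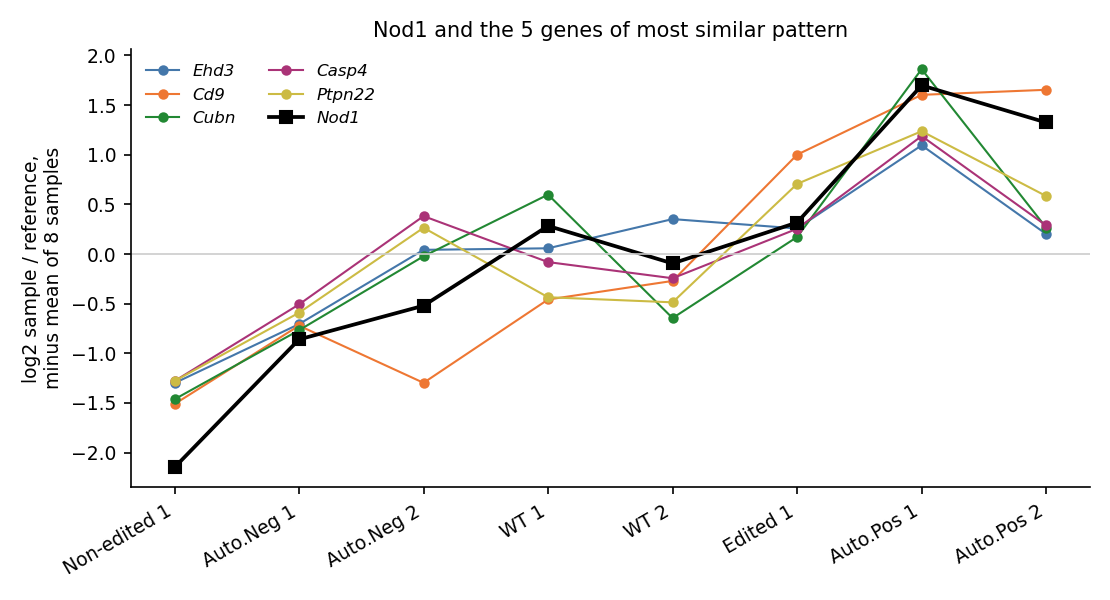
Log2 ratio of sample over reference in the 8 samples for Nod1 and for the 5 genes whose pattern was most like it. Non-edited is the lowest sample of Nod1 and an Auto.Pos sample is the highest.

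For Nod2 the 3 genes most alike, among 10200 chosen by the same rule, were Ptpn9 (0.933), a phosphatase, Parvg (0.911), an adaptor of integrin signalling in blood cells, and Ddx19a (0.897), an RNA helicase. Their differences between Auto.Pos and WT were -0.86, -0.74 and -0.64, and those between Edited and Non-edited were 0.06, 0.01 and -0.12.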

How the data were processed

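Spot and background intensity per channel, deposited as scanner files, were written by Agilent Feature Extraction per the file headers, which name versions 9.1.3.1, 9.5.1.1 and 9.1.1.1, and those files also hold the software's log10 ratio of red over green. The deposited series table holds log2 ratios for which the labels name limma. The amplification started from 100 ng of total RNA, per the labels' protocols.

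Mean foreground was corrected for median background by normexp (offset 50) and each array was loess-normalized, leaving control spots out of the curve and removing outlier spots. All ratios were given as sample over reference and averaged over each dye pair, leaving 8 samples; 358 gene values rested on 1 array. A probe was kept if at least 2 samples had it well above background on both of their arrays (29637 of 41174), and the brightest probe stood for a gene. The number of arrays limits the precision. limma 3.58.1 in R 4.3.3 (with the data.table package, version 1.17.8) fitted 5 group means with 3 residual and 2.11 prior degrees of freedom, and p-values were adjusted over 20461 genes by Benjamini-Hochberg in 3 comparisons. The intervals are limma's 95% intervals. The test was checked on simulated data.

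The table of the series has 16 columns; 6 correlated best with their own array and 10 with a different one, so it served only as an alternative; 0 columns belong to no sample. Replicate numbers are not given as pairs and the check of them is in the closing section.

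Genes and lists were chosen with earlier results of these data known. Named are every member; per role of the pathway list, any gene called and those with the highest and lowest Auto.Pos minus Auto.Neg difference; the genes with the highest Pearson correlation with Nod1 (5) and with Nod2 (3) among genes with at least 50% of its SD; and marker lists. Cd9, Casp4 and the others are named under this rule; Chordc1 and Trim27 were named after their values were seen.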

Additional observations from a re-analysis of the deposited data

How the results depend on the processing

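Results were repeated with other background corrections, scalings, filters, dyes, the series table, blocks and with each replicate left out. Nod1 kept its direction under every alternative run. Leaving out 1 replicate at a time gave 2.02 to 2.39 for Auto.Pos minus Auto.Neg, 1.23 to 1.61 for Auto.Pos minus WT and -0.97 to -0.60 for Auto.Neg minus WT, with limma adjusted p from 0.603 to 1.00. Nod1 passed the threshold in 2 settings: scan day as a random block, chosen after seeing the data (2.23, 1.41 and -0.82), and the series table read by its labels (4.76 for Auto.Pos minus Auto.Neg and -3.61 for Auto.Neg minus WT), in which the 2 columns of each Auto.Neg sample run in opposite directions and nearly cancel. Other members passed in these settings too. With the scan day block these were Slc15a3, Nod2, Xiap and Slc15a4, for Auto.Pos minus WT. With the table by its labels it was Slc15a4, for Auto.Pos minus Auto.Neg (2.23) and Auto.Neg minus WT (-2.87). Over all genes, the median of Auto.Pos minus WT went from 0.06 to -0.06 with median centring.

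The genes called between Auto.Pos and Auto.Neg, 3 in the fit of the report, numbered 1 with median centring, 12 with the sample in Cy5 only and 6 with the scanner protocol as a block. They numbered 0 with scaling between arrays, without the dim filter, with the sample in Cy3 only and without any 1 replicate (0 to 0; an unadjusted p under 0.05 was reached by 135 to 446 genes). For Auto.Pos minus WT, with 0 called in the report, there were 15 with the scanner software's ratio, 72 in Cy5 only and 14 with the table rematched. For Auto.Neg minus WT there were 60 in Cy5 only and 1 with the table rematched. The table read by its labels called 7704 genes between Auto.Pos and Auto.Neg and 6964 between Auto.Neg and WT. The scan day block called 39, 4179 and 459.

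Replicate numbers did not pair the samples: deviations of same-numbered samples correlated at -0.788 between Auto.Neg and Auto.Pos, -0.279 between Auto.Neg and WT and 0.252 between Auto.Pos and WT. With the replicate number as a block 0 genes were called between Auto.Pos and Auto.Neg (130 at an unadjusted p under 0.05) and the adjusted p of Nod1 was 1.00. The scanner protocol block, which pairs Auto.Neg 2 with Auto.Pos 1, left Nod1 at adjusted p of 0.15, 0.179 and 0.310. The slide as a random block was not run, since 1 slide alone holds 2 samples.

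The sign of Ripk2 was not stable. Between Auto.Pos and Auto.Neg it was -0.41 with background subtracted, -0.13 with the table rematched, -0.0360 with the scan day block and -0.0900 within slide 2, and -0.41 to 0.50 with 1 replicate left out. For Auto.Pos minus WT it was 0.0266 without background correction, 0.14 with the scanner software's ratio, 0.0389 in Cy3 only, 0.17 with the table by its labels, 0.46 with the scan day block and 0.55 within scan day 3, and -0.53 to 0.38 with 1 replicate left out. For Auto.Neg minus WT it was 0.25 with background subtracted, 0.10 with the scanner software's ratio, 0.0401 with the table rematched, 0.49 with scan day as a random and 0.64 as a fixed block, and -0.44 to 0.20 with 1 replicate left out.

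Slc15a4 turned to -0.0240 with median centring and -0.12 with scaling for Auto.Pos minus Auto.Neg, and ran from -0.24 to 0.44 with 1 replicate left out. Nod2 turned to 1.15 and Slc15a3 to 0.0819 in the same comparison with the table by its labels. For Auto.Neg minus WT, Nod2 turned to 0.12 with scan day as a random and 0.27 as a fixed block. Xiap turned to 0.11 (Auto.Pos minus WT) and 0.40 (Auto.Neg minus WT) with the table by its labels, and to 0.0223 with the scan day block and 0.0281 within slide 2 for Auto.Pos minus Auto.Neg. With 1 replicate left out, Auto.Pos minus WT ran from -1.05 to -0.30 for Slc15a4, -1.48 to -0.66 for Nod2, -1.67 to -0.80 for Slc15a3 and -0.94 to -0.39 for Xiap. Auto.Neg minus WT ran from -1.15 to -0.40 for Slc15a4, -0.56 to -0.12 for Slc15a3 and -0.80 to -0.26 for Xiap. Auto.Pos minus Auto.Neg reached -0.18 for Nod2 without Auto.Pos 1 and ran from -1.33 to -0.46 for Slc15a3. Apart from the table's opposed columns, the cause was not tested. With 2 samples a group and 3 residual degrees of freedom, and the reference of Ripk2 well above background on 5 of 16 arrays, differences under about 2-fold could not be resolved for most members.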
